A study of Mus musculus with 18 samples.

Results

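Levels of 7 genes that encode transcription factors of the osteoblast, the cell that lays down bone, were followed through the embryonic mouse mandible. They are *Runx1*, *Runx2*, *Runx3*, *Cbfb*, *Sp7*, *Atf4* and *Zfhx4*, chosen by name among the 38243 genes with counts, and each name matched 1 gene. RNA had been taken by laser capture microdissection, in which a region is cut from a frozen section, from 6 female C57BL/6 embryos at embryonic day 16.5. Of these, 3 were heterozygous for the S252W mutation of *Fgfr2* (*Fgfr2*+/S252W, labelled Apert) and 3 were unaffected *Fgfr2*+/+ littermates (labelled WT). Mandibular bone, Meckel's cartilage (MC) and mandibular condylar cartilage (condyle) each gave 3 libraries per genotype, so that 18 libraries fell into 6 groups of 3. *Fgfr2*+/S252W is a model of Apert syndrome, a craniosynostosis syndrome, and carries the allele besides a normal *Fgfr2* gene. The labels name no agent and no further allele. Libraries are named below by tissue, genotype and the replicate number of the label.

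The RUNX proteins bind DNA through a shared domain, and CBFB is the partner subunit that strengthens this binding. RUNX2 is required for osteoblasts to form and also acts in maturing chondrocytes, whereas RUNX1 is best known from blood formation and RUNX3 from cartilage, neurons and lymphocytes. SP7, also called osterix, acts downstream of RUNX2 and is required for bone formation. ATF4 directs amino acid supply and the stress response and is needed late in osteoblast differentiation, and ZFHX4 is a large zinc-finger homeobox protein. MC is the cartilage rod along which the mandible forms, the body of the mandible ossifies without a cartilage template, and the condylar cartilage is a secondary cartilage whose chondrocytes become hypertrophic.

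In the annotation used for counting, on GRCm38, *Runx1* lies on the minus strand of chromosome 16 from 92601467 to 92826066 and *Runx2* on the minus strand of chromosome 17 from 44604001 to 44814797. *Runx3* lies on the plus strand of chromosome 4 from 135120652 to 135177990, and *Cbfb* on the plus strand of chromosome 8 from 105170674 to 105217986. *Sp7*, on the minus strand from 102356609 to 102366325, and *Atf4*, on the plus strand from 80255184 to 80257540, both lie on chromosome 15, and *Zfhx4* lies on the plus strand of chromosome 3 from 5218526 to 5415857. Fragments were counted over the exons without regard to strand, and a fragment that overlapped exons of several genes was not counted. Of the exonic bases of *Runx2*, 7.29% are shared with Runx2os1, and of those of *Runx1*, 1.44% are shared with Gm26626. How many fragments this removed from the counts of both was not measured. None of the 50-base stretches of the *Runx1*, *Runx2* or *Runx3* transcripts in GENCODE M21 occurs in another of the 3 genes, so that reads of that length tell the family members apart.

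The 3 *Runx* genes, whose RNA levels went apart between the tissues as described below, share a short sequence at a transcription start. RefSeq (GRCm38.p6) holds 7 promoter windows for 5 of the 7 genes, each running from 250 bases before a start to 50 bases after it. The sequence AACCACA, a RUNX binding motif, was searched on both strands and occurs in 1731 of 32851 such windows, or 5.27%. Its tandem repeat AACCACAGAACCACA occurs in 4 windows, or 0.0122%, which are 1 each of *Runx1*, *Runx2* and *Runx3* and that of Gm16225, which overlaps the *Runx3* window by 232 bases. The repeats are given here with 5 flanking bases on either side, 5′ to 3′ on the strand of the gene, with the motif copies in capitals.
Runx1: taaacAACCACAgAACCACAagttg
Runx2: caaacAACCACAgAACCACAagtgc
Runx3: ccctcAACCACAgAACCACAaggcc
The *Runx1* stretch is chr16:92826028-92826052 on the minus strand, from base 23 to base 47 of the transcribed sequence, and the *Runx2* stretch is chr17:44814586-44814610 on the minus strand, from base 18 to base 42. The *Runx3* stretch is chr4:135120505-135120529 on the plus strand and lies before its start. The second windows of *Runx1* and *Runx3* and the windows of *Cbfb* and *Atf4* hold 0 copies of the motif. The counts are per gene and do not say from which start a transcript came.

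Between 8218548 and 15585778 fragments were counted per library, and mitochondrial genes took 19.4% to 38.1% of them. Gm42418, a gene that overlaps ribosomal RNA sequence, took 24.1% to 39.4% in MC, 10.9% to 20.2% in the condyle and 5.58% to 9.33% in bone. Levels are given in CPM, counts relative to the library total, scaled by the TMM method over the 11469 genes kept for testing. All 7 genes passed the filter that kept genes above 1 FPKM (CPM per exon length in kilobases) in at least 50% of libraries. For the filter the library totals were not scaled by TMM, whereas for the FPKM values given below they were. No pair of libraries was identical, and the labels name no batch. Counts per gene do not show a base change, so the *Fgfr2* genotype of a library could not be checked.

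The labels of the tissues were compared with marker genes. The summed level of 8 osteoblast markers was 13965 to 32306 CPM in bone, 4585 to 18227 CPM in the condyle and 1473 to 3446 CPM in MC. The summed level of 11 chondrocyte markers was 32681 to 40180 CPM in the condyle and 230 to 591 CPM in bone. In MC it was 452, 3694 and 3825 CPM in the *Fgfr2*+/+ libraries and 10332, 2523 and 2472 CPM in the *Fgfr2*+/S252W libraries, for replicates 1, 2 and 3. The MC libraries thus held far less chondrocyte marker RNA than the condyle, and in this sum *Fgfr2*+/+ MC replicate 1 lay within the range of bone. Its *Col2a1*, at 212 CPM, was also in the bone range of 37.3 to 309 CPM. Its *Acan* and *Col9a1*, at 97.8 and 25.9 CPM, lay above bone, which had at most 6.82 and 1.38 CPM. Its *Ibsp*, an osteoblast matrix gene, was at 230 CPM, while the other 5 MC libraries had between 1.87 and 9.63 CPM and bone had 3547 to 7099 CPM. Its *Col1a1*, at 2854 CPM, lay below the 7900 to 23542 CPM of bone. Replicate 3 of the condyle stood apart in both genotypes by its osteoblast marker sum, at 11695 CPM in *Fgfr2*+/+ and 18227 CPM in *Fgfr2*+/S252W against 4585 to 5570 CPM in the other 4. Results that involve MC or the condyle were also computed without these 3 libraries, an alternative chosen after seeing the data, and the values are given beside the calls that changed and the larger shifts.

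**Figure D1:**
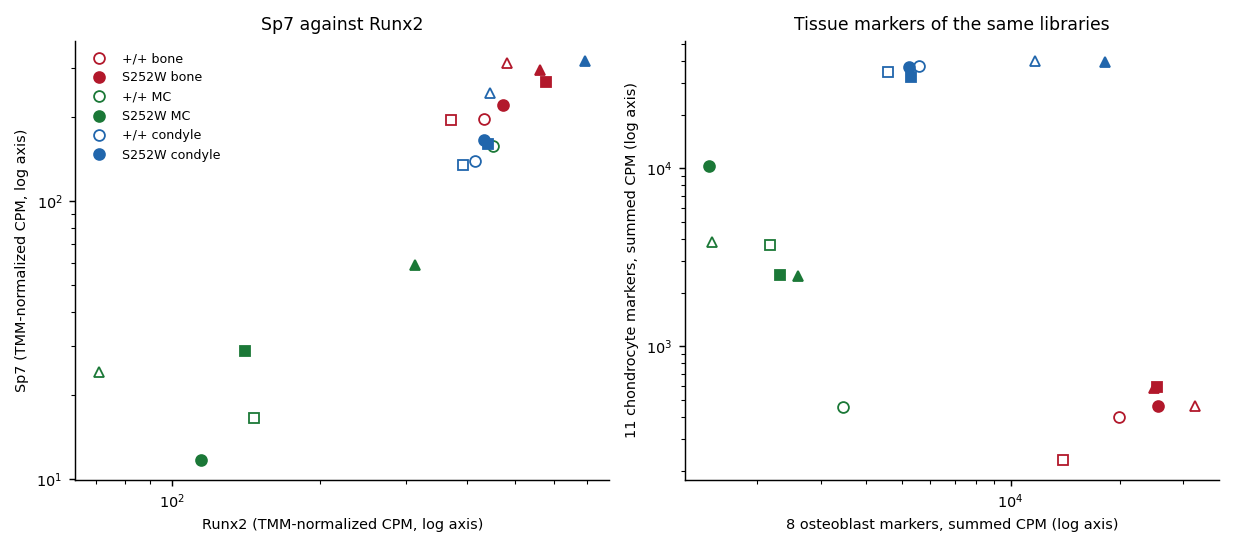
Left, Sp7 against Runx2 (TMM-normalized CPM, log axes) in each of the 18 libraries; right, summed CPM of 11 chondrocyte markers against that of 8 osteoblast markers (log axes) in the same libraries. Open symbols are Fgfr2+/+ and filled symbols Fgfr2+/S252W, colors give the tissue and symbol shapes the replicate; Fgfr2+/+ MC replicate 1 (open green circle) lies with bone and condyle on the left, at 452 CPM of Runx2 and 158 CPM of Sp7, and below the other MC libraries in chondrocyte markers on the right.

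Per exon length, the order of the 7 genes differed between the tissues. In bone the mean level over 6 libraries was 85.3 FPKM for *Sp7*, 67.8 for *Runx2*, 67.1 for *Atf4*, 43.4 for *Cbfb*, 24.4 for *Zfhx4*, 4.82 for *Runx1* and 3.38 for *Runx3*. The ranges of *Sp7*, *Runx2* and *Atf4* overlapped one another, while *Cbfb*, at 39.1 to 48.2 FPKM, lay below all of these and above *Zfhx4*, at 17.9 to 30.1 FPKM. In the condyle the mean was 73.5 FPKM for *Atf4*, 66.6 for *Sp7*, 66.0 for *Runx2*, 25.9 for *Cbfb*, 11.6 for *Runx3*, 6.49 for *Zfhx4* and 1.03 for *Runx1*, and from *Cbfb* downward no neighbors overlapped. In MC it was 33.1 FPKM for *Atf4*, 31.4 for *Cbfb*, 29.0 for *Runx2*, 24.8 for *Zfhx4*, 17.8 for *Runx1*, 17.1 for *Sp7* and 2.34 for *Runx3*. There each neighbor in the order overlapped the next, down to *Sp7*, at 4.05 to 54.3 FPKM, and *Runx3*, at 0.971 to 4.29 FPKM.

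**Figure D2:**
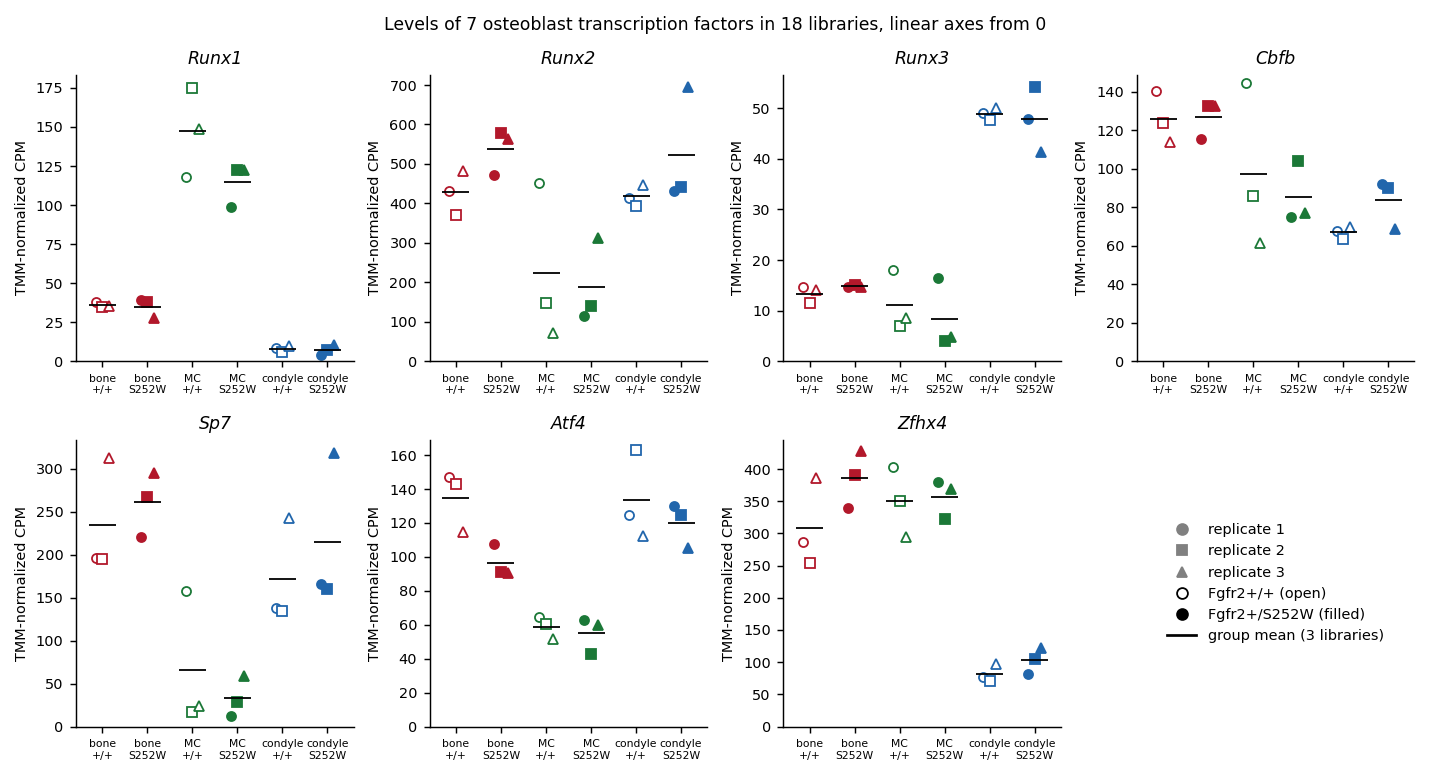
TMM-normalized CPM of the 7 genes in each of the 18 libraries (linear axes from 0), by tissue and genotype, with a bar at the mean of each group of 3. Runx1 is highest in MC and lowest in the condyle, Runx3 is highest in the condyle, and Zfhx4 is lowest there.

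To ask where in the mandible each factor is transcribed, the tissues were compared within each genotype by limma voom, with Benjamini-Hochberg adjustment over 11469 genes and a threshold of 0.05. Between bone and MC, 4 of the 7 genes passed in *Fgfr2*+/+ embryos, where 34% of all genes did, and 5 passed in *Fgfr2*+/S252W embryos, where 38.3% did. Between bone and condyle, 4 passed in *Fgfr2*+/+ (37.4% of all genes) and 4 in *Fgfr2*+/S252W (31.9%). Between condyle and MC, 6 passed in *Fgfr2*+/+ (45% of all genes) and 6 in *Fgfr2*+/S252W (42.6%). The libraries did not overlap between bone and MC for 3 and 5 of the 7 genes in the respective genotypes (40.4% and 54.9% of all genes), between bone and condyle for 4 and 4 (51.8% and 49.5%), and between condyle and MC for 4 and 6 (47.6% and 50.8%). Many genes differ between these tissues, so the counts by themselves say little, and the results lie in which gene was higher where. Without the 3 libraries that stood apart, the counts became 5 and 6, 5 and 5, and 6 and 6, while those over all genes went from 3897 and 4388 to 4737 and 5018, from 4288 and 3656 to 4633 and 4022, and from 5162 and 4883 to 5215 and 5406. In pieces of tissue, fewer cells of a type and less RNA per cell cannot be told apart.

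*Runx1* was highest in MC, lower in bone and lowest in the condyle. In MC the *Fgfr2*+/+ libraries had 118, 175 and 149 CPM and the *Fgfr2*+/S252W libraries 98.7, 122.5 and 122.7 CPM. In bone they had 37.9, 34.8 and 35.4 CPM and 39.2, 38.0 and 27.8 CPM, and in the condyle 8.72, 5.82 and 9.66 CPM and 4.15, 7.13 and 10.3 CPM. No library of one tissue reached the range of another. Bone was 3.98-fold below MC in *Fgfr2*+/+ embryos (log2 difference −1.99, SE 0.20, adjusted p = 7.68e-07) and 3.27-fold below it in *Fgfr2*+/S252W embryos (−1.71, SE 0.20, adjusted p = 2.64e-06). The condyle was 18.1-fold below MC in *Fgfr2*+/+ (−4.18, SE 0.27, adjusted p = 8.29e-10) and 17.9-fold in *Fgfr2*+/S252W (−4.16, SE 0.29, adjusted p = 2.74e-09). Bone exceeded the condyle 4.55-fold and 5.49-fold (adjusted p = 3.64e-06 and 1.67e-06). All 6 of these differences passed under every alternative run, and the order held in 6 of 6 embryos, as inferred from the sample codes of the libraries, for each pair of tissues. Blood cell markers were read in the same libraries, since RUNX1 is also a factor of blood cells. The summed level of 10 macrophage and leukocyte markers was 221 to 341 CPM in bone, 64.4 to 167 CPM in MC and 5.89 to 17.96 CPM in the condyle. The members of that list did not move together, for *Csf1r*, *Cd68* and *Tyrobp* were higher in bone, whereas *C1qa*, *C1qb*, *C1qc* and *Mrc1* had higher means in MC in both genotypes (*C1qb* at 9.27 CPM in MC and 4.77 in bone of *Fgfr2*+/+, and 22.3 and 0.969 of *Fgfr2*+/S252W). Markers of T and NK cells summed to at most 2.27 CPM in any library. The part of blood cells in the *Runx1* levels was not tested.

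*Runx3* was highest in the condyle, where *Runx1* was lowest. There the *Fgfr2*+/+ libraries had 49.1, 47.6 and 50.1 CPM and the *Fgfr2*+/S252W libraries 47.9, 54.1 and 41.3 CPM. Bone had 14.7, 11.4 and 14.0 CPM in *Fgfr2*+/+ and 14.7, 15.03 and 14.7 CPM in *Fgfr2*+/S252W, and MC had 17.9, 6.89 and 8.62 CPM and 16.4, 4.05 and 4.73 CPM. All 6 condyle libraries lay above the other 12, whereas bone and MC overlapped because replicate 1 of MC was high in each genotype. The condyle was 3.66-fold above bone in *Fgfr2*+/+ (adjusted p = 6.40e-06) and 3.22-fold in *Fgfr2*+/S252W (adjusted p = 1.29e-05), and 4.29-fold and 6.31-fold above MC (adjusted p = 2.29e-05 and 1.29e-05). The last of these, a log2 value of 2.66, was 3.43 without *Fgfr2*+/S252W MC replicate 1. Bone and MC differed by a log2 value of 0.23 (95% confidence interval −0.48 to 0.94, adjusted p = 0.636) in *Fgfr2*+/+ and by 0.97 (0.16 to 1.78, adjusted p = 0.0548) in *Fgfr2*+/S252W. The first was 0.79 (limma adjusted p = 0.129) without *Fgfr2*+/+ MC replicate 1 and −0.0180 without replicate 2. The second passed in 9 of 30 alternatives, at 0.96 (limma adjusted p = 0.0254) without the 3 libraries that stood apart and at 1.73 (limma adjusted p = 0.00832) without *Fgfr2*+/S252W MC replicate 1.

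*Runx2*, the factor without which osteoblasts do not form, was at overlapping levels in bone and condyle and lower in most MC libraries. In bone the *Fgfr2*+/+ libraries had 433, 371 and 481 CPM and the *Fgfr2*+/S252W libraries 473, 580 and 562 CPM. The condyle had 415, 392 and 446 CPM and 432, 441 and 695 CPM. In MC the levels were 452, 147 and 71.1 CPM in *Fgfr2*+/+ and 115, 141 and 312 CPM in *Fgfr2*+/S252W. Among the *Fgfr2*+/+ MC libraries, replicate 1, which also had little chondrocyte marker RNA, was in the range of bone, and the other two were well below it. Bone was 3.14-fold above MC in *Fgfr2*+/S252W (log2 difference 1.65, SE 0.42, adjusted p = 0.00395) and the condyle 2.98-fold above it (1.57, SE 0.42, adjusted p = 0.00465), without overlap. In *Fgfr2*+/+ the libraries overlapped, and the differences were 2.40-fold for bone (1.26, SE 0.41, adjusted p = 0.0232) and 2.35-fold for the condyle (1.23, SE 0.42, adjusted p = 0.0202). Both of these *Fgfr2*+/+ calls were lost with edgeR's quasi-likelihood test (adjusted p = 0.116 and 0.112), with DESeq2 (0.0965 and 0.0894) and in fits of the 6 libraries compared (limma adjusted p = 0.0807 and 0.0814). They were also lost without MC replicate 2 or 3, and the call for bone without bone replicate 1 or 3, at log2 values of 1.17 and 0.68 for bone and 1.16 and 0.67 for the condyle when MC replicate 2 or 3 was left out. Without the 3 libraries that stood apart, they were 2.08 and 2.01 (limma adjusted p = 1.42e-05 and 3.07e-05). Bone and condyle differed by 0.03 (95% confidence interval −0.78 to 0.84) in *Fgfr2*+/+ and by 0.08 (−0.72 to 0.88) in *Fgfr2*+/S252W, where the value was 0.28 without the 3 libraries. These intervals are wide because the 6 groups share 1 estimate of spread. The standard deviation of log2 *Runx2* in *Fgfr2*+/+ was 1.34 in MC, 0.19 in bone and 0.09 in the condyle. In fits of the libraries compared, the SE of bone against condyle was 0.15 in *Fgfr2*+/+ and 0.18 in *Fgfr2*+/S252W, in place of 0.39 in each.

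The make-up of *Runx* RNA therefore differed between the tissues. As a share of the summed FPKM of the 3 genes in a library, *Runx2* made up 87.5% to 91.5% in bone and 81.6% to 89.6% in the condyle. The second gene was *Runx1* in bone, at 4.38% to 7.93%, and *Runx3* in the condyle, at 9.08% to 17.1%. In MC, *Runx1* made up 19.1% to 62.6% and *Runx2* 31.0% to 75.7%, and *Runx1* exceeded *Runx2* in *Fgfr2*+/+ replicates 2 and 3. The summed level was 59.5 to 90.1 FPKM in bone, 67.3 to 109 FPKM in the condyle and 32.2 to 83.8 FPKM in MC, with the highest value of MC again in *Fgfr2*+/+ replicate 1.

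**Figure D3:**
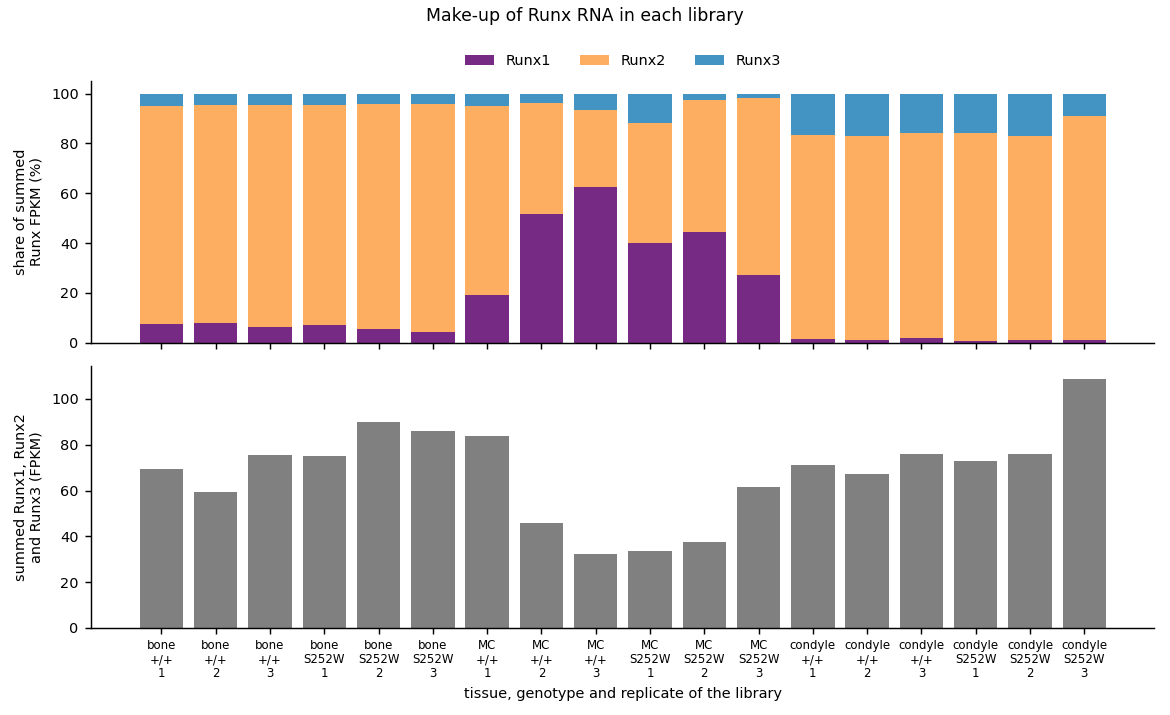
Top, share of Runx1, Runx2 and Runx3 in their summed FPKM in each library (stacked bars, %); bottom, the summed FPKM itself, for 3 replicates per tissue and genotype. Runx2 makes up at least 81.6% in every bone and condyle library, and Runx1 makes up 19.1% to 62.6% in MC.

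*Cbfb*, whose product pairs with each RUNX protein, had the smallest range of tissue differences of the 7 genes. In bone the libraries had 140, 124 and 114 CPM in *Fgfr2*+/+ and 115, 133 and 133 CPM in *Fgfr2*+/S252W. In the condyle they had 67.4, 63.6 and 69.7 CPM and 92.1, 90.2 and 68.6 CPM, and in MC 145, 85.9 and 61.5 CPM and 74.96, 104 and 77.2 CPM. Each bone library lay above each condyle library. Bone exceeded the condyle 1.87-fold in *Fgfr2*+/+ (adjusted p = 0.00186), a call that held under every alternative, and 1.51-fold in *Fgfr2*+/S252W (adjusted p = 0.0315). In *Fgfr2*+/S252W embryos bone also exceeded MC 1.52-fold (adjusted p = 0.0365). Both *Fgfr2*+/S252W calls were lost with edgeR (adjusted p = 0.0621 against the condyle and 0.0608 against MC), with DESeq2 (0.0686 and 0.0750) and without *Fgfr2*+/S252W bone replicate 2 or 3. They were lost as well without condyle replicate 2 or 3 and without MC replicate 1 or 3 of that genotype, respectively, and the call against MC with upper quartile factors (limma adjusted p = 0.0715), although the log2 values stayed between 0.46 and 0.65. In *Fgfr2*+/+ embryos bone and MC differed by a log2 value of 0.40 (adjusted p = 0.161), and by 0.80 (limma adjusted p = 0.00284) without MC replicate 1. Condyle and MC differed there by −0.51 (adjusted p = 0.0754 by limma), by −0.13 without the 3 libraries that stood apart and by −0.75 (limma adjusted p = 0.00700) without MC replicate 3. The ratio of the summed *Runx* FPKM to that of *Cbfb* was 1.40 to 1.98 in bone, 2.30 to 4.62 in the condyle and 1.05 to 2.32 in MC.

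*Sp7*, which acts downstream of RUNX2, followed *Runx2* with a larger fall in MC. In bone the libraries had 196, 195 and 313 CPM in *Fgfr2*+/+ and 221, 268 and 295 CPM in *Fgfr2*+/S252W. In the condyle they had 138, 134 and 243 CPM and 166, 160 and 318 CPM, and in MC 158, 16.6 and 24.4 CPM and 11.8, 28.8 and 58.6 CPM. Each bone library lay above each MC library. In *Fgfr2*+/+ MC only replicate 1 was within the range of the condyle, and in both genotypes replicate 3 of the condyle, with the higher osteoblast marker sum, had the most. Bone exceeded MC 4.82-fold in *Fgfr2*+/+ (log2 difference 2.27, SE 0.55, adjusted p = 0.00349) and 10.03-fold in *Fgfr2*+/S252W (3.33, SE 0.61, adjusted p = 0.000262). The condyle exceeded MC 7.78-fold in *Fgfr2*+/S252W (adjusted p = 0.000615) and 3.46-fold in *Fgfr2*+/+ (1.79, SE 0.55, adjusted p = 0.0124). With 1 library left out, the *Fgfr2*+/S252W differences lay between 2.63 (without MC replicate 1) and 3.93 (without MC replicate 3) for bone and between 2.28 and 3.58 for the condyle without the same libraries, on the log2 scale. The *Fgfr2*+/+ difference of the condyle was lost with edgeR (adjusted p = 0.0771), with DESeq2 (0.117), in the fit of the 6 libraries (limma adjusted p = 0.0550) and without MC replicate 2 or 3 (log2 1.26 and 1.47). Without the 3 libraries that stood apart, the *Fgfr2*+/+ differences from MC were 3.52 for bone and 2.77 for the condyle on the log2 scale (limma adjusted p = 2.12e-06 and 4.16e-05). Bone and condyle did not pass in either genotype (log2 0.48, adjusted p = 0.437, and 0.37, adjusted p = 0.576), and without those libraries the values were 0.74 (limma adjusted p = 0.0290) and 0.65 (limma adjusted p = 0.0560).

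Across the 18 libraries the log2 levels of *Sp7* and *Runx2* had a Pearson correlation of 0.936, and within the 6 libraries of a tissue it was 0.755 in bone, 0.840 in MC and 0.874 in the condyle. These values describe libraries that share embryos and differ in tissue make-up and genotype. The ratio of *Sp7* to *Runx2* in FPKM was 1.11 to 1.60 in bone, 0.818 to 1.34 in the condyle and 0.252 to 0.856 in MC.

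*Atf4* was lower in MC than in bone or condyle. In MC the libraries had 64.3, 60.6 and 51.7 CPM in *Fgfr2*+/+ and 63.1, 42.6 and 60.0 CPM in *Fgfr2*+/S252W. Bone had 147, 143 and 114 CPM and 108, 90.9 and 90.6 CPM, and the condyle 125, 163 and 112 CPM and 130, 125 and 105 CPM. All 6 MC libraries lay below the other 12. Bone was 2.26-fold above MC in *Fgfr2*+/+ (adjusted p = 9.12e-05) and 1.73-fold in *Fgfr2*+/S252W (adjusted p = 0.00283), and the condyle 2.22-fold and 2.17-fold (adjusted p = 4.60e-05 and 0.000105). These 4 differences passed under every alternative. Bone and condyle did not pass in *Fgfr2*+/+ (log2 0.02, 95% confidence interval −0.32 to 0.36, adjusted p = 0.930) or in *Fgfr2*+/S252W (−0.32, −0.67 to 0.02, adjusted p = 0.148), and the second passed without the 3 libraries that stood apart (−0.43, limma adjusted p = 0.0480) and with sample quality weights (−0.37, limma adjusted p = 0.0154).

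*Zfhx4* was at overlapping levels in MC and bone and much lower in the condyle. Bone had 286, 254 and 386 CPM in *Fgfr2*+/+ and 340, 391 and 428 CPM in *Fgfr2*+/S252W, and MC had 404, 351 and 295 CPM and 379, 323 and 369 CPM. The condyle had 76.5, 71.2 and 96.9 CPM and 82.0, 106 and 122 CPM. Bone and MC overlapped, and all 6 condyle libraries lay below the other 12. Bone exceeded the condyle 3.77-fold in *Fgfr2*+/+ (log2 difference 1.91, SE 0.18, adjusted p = 1.08e-07) and 3.81-fold in *Fgfr2*+/S252W (1.93, SE 0.18, adjusted p = 7.27e-08). MC exceeded the condyle 4.32-fold and 3.54-fold (adjusted p = 3.46e-08 and 2.40e-07). These 4 differences passed under every alternative. Bone and MC differed by a log2 value of −0.20 (95% confidence interval −0.56 to 0.17, and −0.0636 without the 3 libraries that stood apart) in *Fgfr2*+/+ and of 0.11 (−0.26 to 0.47) in *Fgfr2*+/S252W. The summed level of 9 fibroblast and perichondrium markers was also lowest in the condyle, at 643 to 924 CPM, against 2255 to 3376 CPM in bone and 1817 to 2745 CPM in MC, and its part in the *Zfhx4* and *Runx1* levels was not tested.

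**Figure D4:**
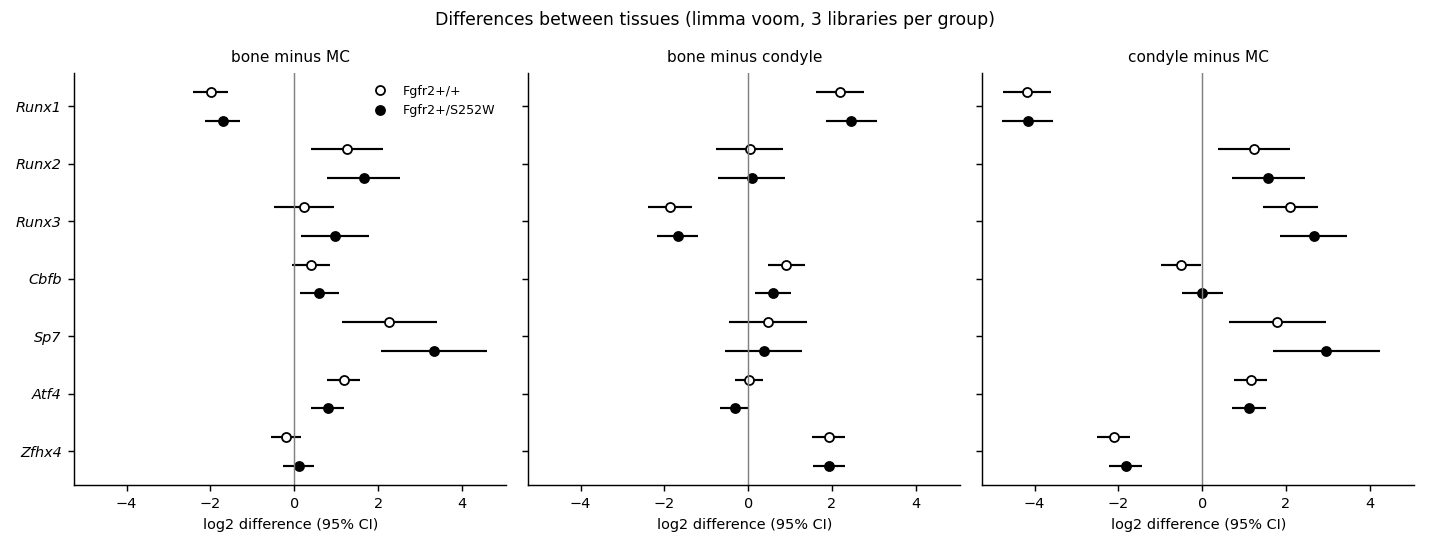
Log2 difference of each of the 7 genes between 2 tissues (points) with 95% confidence intervals (lines), from limma voom with 3 libraries per group, for Fgfr2+/+ (open) and Fgfr2+/S252W (filled). Runx1 falls from MC to bone to condyle, Runx3 is highest in the condyle, Runx2, Sp7 and Atf4 are lower in MC, and Zfhx4 is lower in the condyle, in both genotypes.

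To ask whether the *Fgfr2* mutation changes the transcription of these factors, the genotypes were compared within each tissue. In bone 0 of the 7 genes passed, where 10 of the 11469 genes, or 0.0872%, did. In MC 0 of 7 passed and 0% of all genes did, and in the condyle 0 of 7 and 0%. Without adjustment, p was under 0.05 for 932 genes in bone (8.13%), 1761 in MC (15.4%) and 351 in the condyle (3.06%), among them 1, 0 and 0 of the 7. The libraries of the genotypes did not overlap for 2 of the 7 in bone, 0 in MC and 0 in the condyle, where they did not for 20.4%, 13.4% and 9.77% of all genes. Over all genes, edgeR called 4, 90 and 0 genes and DESeq2 17, 423 and 3, and neither called any of the 7.

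*Atf4* in bone had the smallest p of the 21 genotype differences. The *Fgfr2*+/+ libraries had 147, 143 and 114 CPM and the *Fgfr2*+/S252W libraries 108, 90.9 and 90.6 CPM, so that each mutant library lay below each control. The log2 difference was −0.48 (SE 0.16, 95% confidence interval −0.81 to −0.14, adjusted p = 0.399 by limma). It passed with sample quality weights alone (limma adjusted p = 0.0200), a setting that called 589 genes in bone against 10, and over the alternatives the difference lay between −0.60 and −0.41. Other measures moved with it. The mitochondrial share of counts was 36.0%, 34.8% and 20.4% in the *Fgfr2*+/+ bone libraries and 23.6%, 23.4% and 23.4% in the *Fgfr2*+/S252W libraries, and replicate 3, with the lowest *Atf4* of the controls, also had the lowest share. The summed level of 7 erythroid markers was 1278 to 1529 CPM in *Fgfr2*+/+ bone and 323 to 616 CPM in *Fgfr2*+/S252W bone. That of 7 skeletal muscle markers was 231, 229 and 26.2 CPM in *Fgfr2*+/+ bone and 1.28, 8.29 and 28.5 CPM in *Fgfr2*+/S252W bone, and the part of any of these measures in the *Atf4* difference was not tested.

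The other 6 genes gave smaller or less certain differences in bone. *Zfhx4* had a log2 difference of 0.34 (95% confidence interval −0.02 to 0.69, adjusted p = 0.638) and *Runx2* one of 0.33 (−0.47 to 1.13, adjusted p = 0.913). *Sp7* differed by 0.18 (−0.73 to 1.08), *Runx3* by 0.15 (−0.40 to 0.71), *Cbfb* by 0.01 (−0.40 to 0.43) and *Runx1* by −0.05 (−0.48 to 0.37). Without *Fgfr2*+/+ bone replicate 2, *Sp7* was 0.0597, *Runx3* 0.0502 and *Zfhx4* 0.21, and without replicate 3 of that group *Sp7* was 0.41 and *Zfhx4* 0.51. The *Runx3* libraries did not overlap, at 11.4 to 14.7 CPM in *Fgfr2*+/+ and 14.7 to 15.03 CPM in *Fgfr2*+/S252W, although the difference was small. When the 6 bone libraries were fitted by themselves, *Runx2* differed by 0.33 with an SE of 0.14 in place of 0.38 (limma adjusted p = 0.287). Markers of osteoclasts, the cells that resorb bone, summed to 973 to 1272 CPM in *Fgfr2*+/+ bone and 1844 to 2553 CPM in *Fgfr2*+/S252W bone, and those of osteoblasts overlapped at 13965 to 32306 and 24815 to 25571 CPM.

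In MC the differences lay between −0.88 for *Sp7* (95% confidence interval −2.33 to 0.56) and 0.03 for *Zfhx4* (−0.34 to 0.41), with adjusted p-values from 0.418 to 0.968. *Runx2* differed by −0.06 (−0.98 to 0.87), *Runx3* by −0.59 (−1.51 to 0.34), *Cbfb* by −0.19 (−0.68 to 0.31), *Runx1* by −0.34 (−0.75 to 0.07) and *Atf4* by −0.10 (−0.54 to 0.34). For *Runx2*, *Sp7* and *Cbfb* the sign turned without *Fgfr2*+/+ replicate 1, where the values were 0.76, 0.37 and 0.22. *Runx3* was −0.02 without that library and −1.33 without *Fgfr2*+/S252W MC replicate 1, and *Runx1* was −0.20 without *Fgfr2*+/+ MC replicate 2. The sign of *Runx2* also turned without *Fgfr2*+/S252W MC replicate 1 (0.27) or 2 (0.09). None of these passed either. In the condyle the differences lay between −0.32 for *Runx1* (−1.05 to 0.41) and 0.32 for *Cbfb* (−0.13 to 0.78) and *Zfhx4* (−0.09 to 0.73), and the smallest adjusted p was 0.998. *Runx2* and *Sp7* differed by 0.28 (−0.52 to 1.09) and 0.29 (−0.66 to 1.23) there, *Atf4* by −0.13 (−0.48 to 0.22) and *Runx3* by −0.03 (−0.49 to 0.43). Without the 3 libraries that stood apart, *Runx2* was 0.12 and *Cbfb* 0.48, and *Runx2* was 0.0665 without *Fgfr2*+/S252W condyle replicate 3. *Sp7* turned to −0.0170 without that replicate, where *Zfhx4* was 0.20, and *Runx1* turned to 0.0838 without replicate 1 of the same group, where *Zfhx4* was 0.49.

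**Figure D5:**
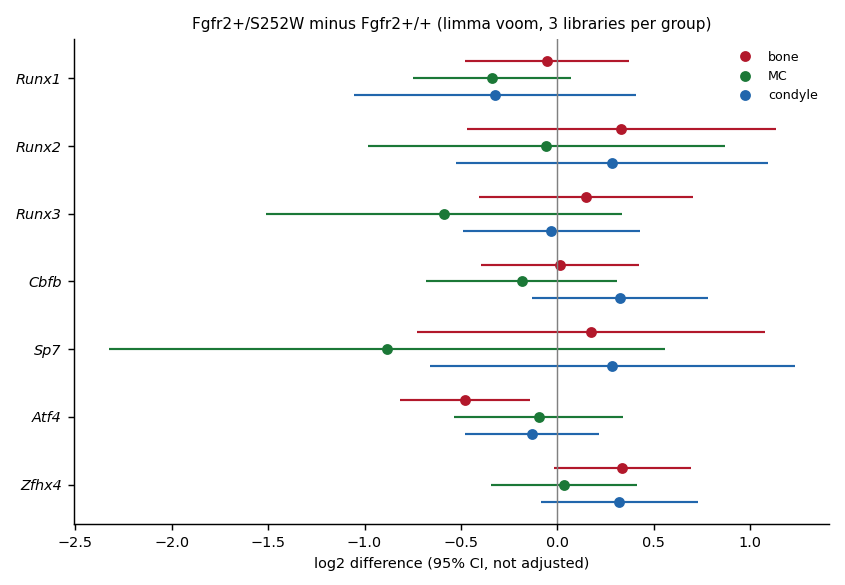
Log2 difference of each of the 7 genes between Fgfr2+/S252W and Fgfr2+/+ libraries (points) with 95% confidence intervals not adjusted for the number of genes (lines), from limma voom with 3 libraries per group, in bone, MC and condyle. Of the 21 intervals, that of Atf4 in bone, from −0.81 to −0.14, excludes 0.

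Whether the genotype difference itself changed between tissues was tested as an interaction. None of the 7 genes passed for bone against MC, where 0.0523% of all genes did, for bone against condyle (0%) or for condyle against MC (0%), and 0 of 7 had an unadjusted p below 0.05 in any of these, where 10.9%, 3% and 9.51% of all genes did. By limma, the interaction values ran from −0.38 for *Atf4* to 1.06 for *Sp7* in bone against MC. Several of the interaction values changed sign or shrank without 1 library, *Fgfr2*+/+ MC replicate 1. In bone against MC, *Sp7* was then −0.18, *Runx2* went from 0.39 to −0.42, *Cbfb* from 0.20 to −0.19 and *Runx3* from 0.74 to 0.19. In condyle against MC, *Sp7* went from 1.17 to −0.0830, *Runx2* from 0.34 to −0.47 and *Runx3* from 0.55 to −0.00642. In the full fit the intervals differed in width between the genes, from −0.65 to 2.76 for *Sp7* to −0.22 to 0.82 for *Zfhx4* and −0.30 to 0.88 for *Runx1*.

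Genes that act with or downstream of these factors were read in the same fit. Of 18 genes for RUNX and CBFB partners and co-regulators, 17 were kept and 0 passed between the genotypes in any tissue. Their median log2 difference between the genotypes was 0.06 in bone, 0.10 in MC and 0.04 in the condyle, against −0.000737, 0.03 and −0.01 over all genes. Between the tissues they went in both directions, as in bone against MC, where 1 was higher and 6 lower in *Fgfr2*+/+ and 2 higher and 6 lower in *Fgfr2*+/S252W (34% and 38.3% of all genes). In the fit of the 6 *Fgfr2*+/S252W libraries compared the counts were 4 and 9, while 47.8% of all genes passed in place of 38.3%. *Runx1t1*, which encodes a corepressor also known as a fusion partner of RUNX1, was lower in bone than in MC (mean 12.1 against 54.3 CPM in *Fgfr2*+/+, log2 −2.08, adjusted p = 2.87e-05) and lower still in the condyle (6.496 CPM). *Hdac4*, a histone deacetylase that restrains RUNX2, had the same order in *Fgfr2*+/+, at 36.5 CPM in MC, 13.8 in bone and 8.73 in the condyle. *Trps1*, which encodes a GATA-type repressor of chondrocyte maturation, was highest in the condyle, at 1025 CPM against 176 in bone and 183 in MC of *Fgfr2*+/+ embryos (adjusted p = 3.98e-08 and 4.22e-08). *Hivep3*, whose product promotes the breakdown of RUNX2, was also highest there, at 151 CPM against 16.5 and 18.3 (adjusted p = 3.07e-07 and 2.59e-06).

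Of 26 other transcription factors of the osteoblast lineage, 21 were kept, and 0 passed between the genotypes. The smallest p-values were those of *Lef1*, a mediator of WNT signals, in bone (mean 8.77 CPM in *Fgfr2*+/S252W and 3.59 in *Fgfr2*+/+, log2 difference 1.26, SE 0.34, adjusted p = 0.220) and of *Zfp521* in MC (524 and 328 CPM, 0.80, SE 0.23, adjusted p = 0.131). Between bone and condyle 10 were higher and 2 lower in bone in *Fgfr2*+/+ embryos and 11 and 2 in *Fgfr2*+/S252W, with median log2 differences of 0.83 and 0.82 against 0.00465 and 0.00426 over all genes, of which 37.4% and 31.9% passed. *Msx1*, a homeobox gene of craniofacial mesenchyme, was at 19.8 CPM in bone and 0.246 in the condyle of *Fgfr2*+/+ embryos (adjusted p = 2.21e-07). Between condyle and MC 4 were higher and 12 lower in *Fgfr2*+/+ and 5 and 11 in *Fgfr2*+/S252W, where 45% and 42.6% of all genes passed. Among these, *Mef2c*, a regulator of chondrocyte hypertrophy, was higher in the condyle (948 against 136 CPM in *Fgfr2*+/+), and *Zfp521* (45.9 against 328 CPM) and *Prrx1*, a factor of limb and craniofacial mesenchyme (154 against 731 CPM), were higher in MC.

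Osteoblast genes known as targets of RUNX2 or SP7 were mostly higher in bone than in MC, as the 2 factors were. *Alpl* and *Ibsp* among them also served as osteoblast markers above, and the part of the 2 factors or of cell make-up was not tested. Of 20 such genes, 15 were kept, and 14 were higher in bone in *Fgfr2*+/+ embryos and 15 in *Fgfr2*+/S252W, with 0 lower, where 34% and 38.3% of all genes passed in either direction. The median log2 differences were 3.43 and 3.67 against 0.02 over all genes. *Sparc*, a matrix glycoprotein, had means of 11423 CPM in bone and 1036 in MC, *Col1a2*, a chain of type I collagen, 17228 and 1511 CPM, and *Spp1*, or osteopontin, 2510 and 28.0 CPM in *Fgfr2*+/+ (adjusted p = 1.13e-08, 7.43e-07 and 1.34e-06). Between bone and condyle, where neither *Runx2* nor *Sp7* passed, 9 of these targets were higher and 2 lower in bone in each genotype, where 37.4% and 31.9% of all genes passed. The collagenase *Mmp13* was at 1304 CPM in bone and 12.8 in the condyle of *Fgfr2*+/+ embryos, and *Panx3*, a channel protein, was lower in bone than in the condyle of *Fgfr2*+/S252W embryos (368 against 1969 CPM, adjusted p = 1.05e-05). In the fit of the 6 *Fgfr2*+/+ libraries compared, 14 of 19 tested, rather than 9 of 15, were higher in bone, while the share of all genes that passed went from 37.4% to 43.3%. Between condyle and MC 9 were higher and 1 lower in *Fgfr2*+/+ and 11 and 0 in *Fgfr2*+/S252W (45% and 42.6% of all genes). None passed between the genotypes in this fit, the nearest being *Enpp1*, which encodes an enzyme that makes pyrophosphate, in bone (mean 395 CPM in *Fgfr2*+/S252W and 112 in *Fgfr2*+/+, log2 difference 1.84, SE 0.41, adjusted p = 0.0933), followed by *Dmp1*, an osteocyte matrix gene (305 and 141 CPM, 1.13, SE 0.33, adjusted p = 0.286). The paper reports *Enpp1* as significantly raised in the mutant mandible, by its own RNA-seq test and by in situ hybridization. In this fit 10 of 11469 genes passed in bone, while 141 of 12322 passed when the bone libraries were fitted by themselves.

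Of 8 genes linked to RUNX2 in hypertrophic cartilage, among them *Alpl*, *Ibsp*, *Mmp13* and *Spp1* of the preceding list, 7 were kept. *Col10a1*, the collagen of hypertrophic chondrocytes, had means of 2830 CPM in the condyle, 1.99 in bone and 4.82 in MC of *Fgfr2*+/+ embryos (adjusted p = 6.49e-10 and 3.83e-09 against the condyle). *Pth1r*, the receptor for parathyroid hormone and PTHrP, was at 507 CPM in the condyle, 87.4 in bone and 22.7 in MC. In bone against condyle 2 were higher and 2 lower in each genotype, where 37.4% and 31.9% of all genes passed, and 4 and 2 without the 3 libraries that stood apart, where 4633 and 4022 genes in all passed in place of 4288 and 3656. In condyle against MC 4 were higher and 0 lower in each genotype (45% and 42.6% of all genes). Between the genotypes in the condyle, 0 passed, and *Col10a1* had the smallest p (1884 CPM in *Fgfr2*+/S252W and 2830 in *Fgfr2*+/+, log2 difference −0.66, SE 0.29, adjusted p = 0.998).

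Of 27 ATF4 targets and regulators, 24 were kept. In bone, where *Atf4* itself was lower in each mutant library, 20 of the 24 had a negative difference between the genotypes, with a median of −0.29 against −0.000737 over all genes. Of all genes, 50.1% had a negative difference. Of the 24, 6 had p under 0.05 without adjustment, as 8.13% of all genes did, and 0 passed. *Chac1*, which encodes an enzyme that degrades glutathione and is induced by ATF4, had means of 8.74 CPM in *Fgfr2*+/S252W and 38.4 in *Fgfr2*+/+ (log2 difference −2.20, SE 0.53, adjusted p = 0.136 by limma), and *Psat1*, an enzyme of serine synthesis, 89.2 and 141 CPM (−0.63, SE 0.16, adjusted p = 0.187). In MC 13 of the 24 were positive and 11 negative (median 0.07), and in the condyle 9 and 15 (median −0.09). Without *Fgfr2*+/+ bone replicate 3, the control with the low mitochondrial share and the lowest *Atf4*, 2 of the 24 passed in bone, both lower in the mutant, where 91 genes in all did in place of 10. The count was also 2 without the 3 libraries that stood apart, where 120 genes in all passed. This list was not read with any other bone library left out, and the cause of these differences was not tested. Between bone and MC, 10 were higher and 1 lower in bone in *Fgfr2*+/+ and 6 and 1 in *Fgfr2*+/S252W, where 34% and 38.3% of all genes passed. Between condyle and MC, 10 and 7 were higher in the condyle and 0 lower, where 45% and 42.6% of all genes passed, so that the number passing was not above the background in 3 of these 4 comparisons.

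The genes whose log2 levels were most like those of each factor over the 18 libraries, among 11468 others, are given as a description. For *Runx1* they were *Rassf2* (Pearson r = 0.983), *Rgl1* (0.983) and *Fnbp1* (0.979), and for *Runx3* they were *Pim3* (0.975), *Msrb3* (0.956) and *Fads3* (0.955). *Runx2* was most like *Lgr4* and *Fabp3* (0.938 each), and then *Sp7* (0.936), while *Sp7* was most like *Dlx3* (0.967), a homeobox gene of the osteoblast lineage. *Cbfb* was most like *Dhx9* (0.935), *Atf4* most like *Chchd2* (0.966), and *Zfhx4* most like the osteoblast cadherin *Cdh11* (0.980), *Nrp2* (0.976) and *Sema3a* (0.975). Among the 7 factors themselves, *Runx1* ran with *Zfhx4* (0.864) and against *Runx3* (−0.897), but within the 6 libraries of a tissue these values were between −0.495 and 0.555 and between −0.386 and 0.0768.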

How the data were processed

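Total RNA of the 18 captured samples had been amplified (NuGEN Ovation), sequenced as paired reads, trimmed with cutadapt and mapped to mm10 with STAR, per the labels. The deposited values are raw counts of fragments per gene, made by the authors with featureCounts 1.5.0-p1 on Ensembl 75 exons, per the file headers. They ignore strand and leave out fragments with more than 1 alignment or gene. RNA amplified from small captures gives levels that vary more between libraries, and amplified duplicates were counted as fragments, since no molecular identifiers were used. The totals of 8218548 to 15585778 counts per library limit the precision most for *Runx1* in the condyle (62 to 116 fragments) and *Runx3* in MC (18 to 193 fragments).

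Following the study's methods, the filter required over 1 FPKM in 50% or more of the libraries, counts were scaled by TMM, and limma 3.58.1 (voom, eBayes, with edgeR 4.0.16 in R 4.3.3) was fitted to 6 groups of 3 libraries, with Benjamini-Hochberg adjustment over the 11469 genes and a threshold of 0.05. Intervals are 95% and not adjusted for the number of genes. The 12 contrasts were the genotypes within each tissue, the tissues within each genotype and the differences between genotype effects. The alternatives tried were DESeq2 1.42.0, the quasi-likelihood test of edgeR, other filters and scalings, blocks for replicate number and embryo, sample quality weights, the libraries compared alone, and each library left out. The 7 genes, the gene lists and the marker lists were chosen with earlier results of these data known. From each list, up to 4 genes with the smallest p in a comparison are named, and for each of the 7 genes up to 3 with the highest correlation. Libraries that share a sample code were taken as 1 embryo, which the labels do not spell out. Such libraries deviated together little across tissues (mean r = 0.00115 over 18 pairs, −0.0863 to 0.105).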

Additional observations from a re-analysis of the deposited data

How the results depend on the processing

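Over 63 differences of the 7 genes and 30 alternatives each, 1788 of 1890 values kept their direction and their side of the threshold, 30 lost a call, 16 gained one and 56 changed sign. Of 29 tissue differences that passed, 24 passed under every alternative. The others are *Runx2* (bone and condyle against MC in *Fgfr2*+/+), *Sp7* (condyle against MC in *Fgfr2*+/+) and *Cbfb* (bone against both cartilages in *Fgfr2*+/S252W), and the cause was not tested. With sample quality weights 1 gene, *Atf4*, passed between the genotypes in bone in place of 0, while the genes called there rose from 10 to 589. Over all genes, the genotype counts under the other alternatives were 4 to 141 in bone, where they were 0 to 91 with a library left out, 0 to 423 in MC and 0 to 3 in the condyle. Library totals limit mainly *Runx1* in the condyle and *Runx3* in MC, and 3 embryos per genotype limit all genotype differences. The blocks for replicate number and for embryo changed no count of called members in any comparison. Replicate numbers across genotypes were not taken to pair libraries (mean r = 0.0356 over 9 pairs, −0.152 to 0.277, with 3 above 0.1), and with that replicate block the sign of *Cbfb* in condyle against MC in *Fgfr2*+/S252W turned, to −0.00907.

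None of the values that changed sign passed the test before or after. In MC between the genotypes, *Runx2* was 0.49 and 0.75 and *Cbfb* 0.0254 and 0.21 with sample quality weights and without the 3 libraries that stood apart, and *Sp7* was 0.36 without these. *Runx3* in the condyle was 0.0753 and 0.0783 in these settings. In bone, *Runx1* was 0.0112 with no filter, *Cbfb* was −0.0311 with upper quartile factors, and *Zfhx4* in MC was −0.00332 with no filter. Between bone and condyle in *Fgfr2*+/+, *Runx2* was −0.00211 with edgeR's default filter, and *Atf4* was −0.0137 with that filter, −0.0019 with DESeq2 and −0.0979 without the 3 libraries. *Cbfb* in condyle against MC in *Fgfr2*+/S252W was −0.0271 with edgeR, −0.0337 with DESeq2, −0.0129 in the fit of the 6 libraries, −0.0014 with RLE factors and −0.0971 with upper quartile factors.

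With 1 library left out at a time, the genotype differences that changed sign ranged in MC from −0.64 to 0.76 for *Runx2*, −0.45 to 0.22 for *Cbfb*, −1.46 to 0.37 for *Sp7*, −0.21 to 0.0730 for *Atf4* and −0.0783 to 0.17 for *Zfhx4*. In bone they ranged from −0.14 to 0.10 for *Runx1* and −0.0587 to 0.0950 for *Cbfb*, and in the condyle from −0.57 to 0.0838 for *Runx1*, −0.12 to 0.0531 for *Runx3*, −0.0170 to 0.56 for *Sp7* and −0.24 to 0.0208 for *Atf4*. Between bone and condyle *Runx2* ranged from −0.0507 to 0.14 in *Fgfr2*+/+ and −0.0473 to 0.28 in *Fgfr2*+/S252W, and *Atf4* from −0.0932 to 0.17 in *Fgfr2*+/+. *Runx3* ranged from −0.0180 to 0.79 between bone and MC in *Fgfr2*+/+, and *Cbfb* from −0.0729 to 0.16 between condyle and MC in *Fgfr2*+/S252W.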
